A study of Homo sapiens with 40 samples.

Results

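PEG10, ERV3-1, ERVMER34-1, ERVW-1, PNMA1, PNMA2, PNMA3, PNMA5 and ARC are human genes that derive from retrotransposons or from the envelope genes of endogenous retroviruses. These 9 members, of 60664 genes in the count table, were looked up through their Ensembl identifiers. The members were chosen by name, with earlier results of these data known. They were followed by RNA sequencing in 786-0 cells, an established human line from a clear cell carcinoma of the kidney, in 40 libraries that fall into 20 groups of 2. The groups were SETD2 WT and SETD2 KO cells, untreated on day 0 or treated and sampled on day 5, 16 or 26. Treatment was 100 nM DAC, 10 nM BMN, or both agents at these doses (called the combination). The sample titles give a day and a dose and do not say whether an agent was present throughout. SETD2 is the enzyme that trimethylates lysine 36 of histone H3, DAC is decitabine, an inhibitor of DNA methyltransferases, and BMN is BMN673 (talazoparib), an inhibitor of the DNA repair enzyme PARP. One population of each genotype was sampled, and the labels do not give the number of clones behind the KO cells. Untreated cells were taken on day 0 alone, so each comparison with the control also carries the time in culture. The labels do not say whether the 2 libraries of a group came from separate cultures, so the p-values measure only the spread between these libraries.

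Retrotransposons and retroviruses leave copies of their capsid (gag), polymerase (pol) and envelope (env) genes in the genome, and a few of these copies have become host genes. DNA methylation and histone marks keep most of the other copies silent. PEG10 is an imprinted gene, expressed from the paternal allele, that keeps gag and pol reading frames and is needed for placental development. The PNMA genes and ARC derive from gag genes, and ARC assembles capsids in neurons, where it is also an immediate early gene. ERVW-1 encodes syncytin-1, an envelope protein that fuses trophoblast cells, and ERV3-1 and ERVMER34-1 carry further envelope reading frames.

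DNA methyltransferases methylate cytosine in CG dinucleotides, and DAC inhibits these enzymes, so the upstream sequences of 3 members are shown with each CG in capitals. PNMA5 went from no counts to a high level under DAC, PNMA3 is its neighbour and stayed near 0, and ERVMER34-1 was low throughout. The sequences are those of RefSeq on GRCh38.p14, read 5′ to 3′ on the gene's strand, and hold the bases before the annotated exons. The distal PNMA5 start was preceded by chrX:152994117-152994366 (minus strand, 250 bases, 16 CG) and the proximal PNMA5 start by chrX:152992218-152992467 (minus strand, 250 bases, 2 CG). The PNMA3 stretch was chrX:153056220-153056408 (plus strand, 189 bases, 23 CG), and the ERVMER34-1 stretch was chr4:52751587-52751675 (minus strand, 89 bases, 8 CG).
PNMA5 distal: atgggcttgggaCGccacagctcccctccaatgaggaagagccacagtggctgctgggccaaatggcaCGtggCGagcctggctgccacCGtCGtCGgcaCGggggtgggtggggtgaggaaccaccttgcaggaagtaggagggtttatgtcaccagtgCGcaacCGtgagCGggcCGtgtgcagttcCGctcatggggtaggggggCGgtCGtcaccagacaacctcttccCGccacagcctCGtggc
PNMA5 proximal: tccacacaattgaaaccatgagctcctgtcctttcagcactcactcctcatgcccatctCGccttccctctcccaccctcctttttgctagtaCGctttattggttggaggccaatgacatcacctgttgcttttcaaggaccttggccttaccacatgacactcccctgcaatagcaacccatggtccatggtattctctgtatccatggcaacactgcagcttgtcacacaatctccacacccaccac
PNMA3: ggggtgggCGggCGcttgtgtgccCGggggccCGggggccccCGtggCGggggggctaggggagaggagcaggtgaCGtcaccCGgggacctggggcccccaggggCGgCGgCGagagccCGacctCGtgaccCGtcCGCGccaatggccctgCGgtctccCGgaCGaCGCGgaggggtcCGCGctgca
ERVMER34-1: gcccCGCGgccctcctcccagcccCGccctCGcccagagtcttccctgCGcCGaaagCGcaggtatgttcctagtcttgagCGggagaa

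Windows of 300 bases, from 250 before to 50 after an annotated start, were compared by their number of CG dinucleotides. A window was matched for 5 of the 9 members (ERV3-1, ERVMER34-1, ERVW-1, PNMA3 and PNMA5), and the 35116 windows of all genes held a median of 14 CG. PNMA3 had 41 CG in its window, a number that 6.69% of all windows reached. The distal PNMA5 window had 23, reached by 35.8%, and the ERVMER34-1 window had 24, reached by 33.9%. The windows of the proximal PNMA5 start (4 CG), of ERVW-1 (5 CG) and of the ERV3-1 starts (9 and 4 CG) lay below the median. PNMA3 and the distal PNMA5 start were thus both above the median in CG. No methylation was measured.

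The genes lie on 5 chromosomes of GRCh38. Chromosome 7 holds PEG10 (ENSG00000242265, 94656325 to 94669695, plus strand), ERV3-1 (ENSG00000213462, 64990356 to 65006743, minus strand) and ERVW-1 (ENSG00000242950, 92468380 to 92477986, minus strand). ERVMER34-1 (ENSG00000226887) lies on chromosome 4 at 52722618 to 52751586 on the minus strand. PNMA1 (ENSG00000176903) lies on chromosome 14 at 73711783 to 73714384 on the minus strand. Chromosome 8 holds PNMA2 (ENSG00000240694, 26504701 to 26514092, minus strand) and ARC (ENSG00000198576, 142611049 to 142614479, minus strand). On chromosome X, PNMA5 (ENSG00000198883, 152988824 to 152994116, minus strand) and PNMA3 (ENSG00000183837, 153056409 to 153060467, plus strand) are neighbours, 62292 bases apart and on opposite strands.

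Total counts ran from 17833960 to 22631101 per library, and 22527 genes, among them 7 of the 9 members, passed the filter on low counts. PNMA3 and ERVW-1 did not. PNMA5, ARC and ERVMER34-1 passed through the groups in which they were high, so counts of members past the test are descriptions only. Levels are in CPM, counts scaled to a common library total, which compare 1 gene between libraries. Differences are log2 ratios with their standard error (SE), and an adjusted p under 0.05 counts as a change. Where a group had no counts, the fold is a lower bound against a floor of 3 counts per library (0.133 to 0.171 CPM). Of 10 renal line markers, 9 stood at 7.28 CPM or more in every library, while CA9, a target of hypoxia signalling, lay at 0 to 3.05 CPM. SETD2 mRNA was 139 CPM in untreated WT and 127 CPM in untreated KO cells, a log2 difference of -0.13 (SE 0.07, adjusted p = 0.198), so the mRNA level neither separated the genotypes nor checked their labels. Replicates differed most in the WT control, where the chi-square per gene was 22.1 against 1.67 in the closest group.

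Per length, the members spanned from PEG10 among abundant mRNAs to genes near 0. In untreated WT cells the level in RPKM, which is CPM per kilobase of exon, was 137 for PEG10, 16.9 for PNMA1, 5.24 for ERV3-1 and 1.23 for PNMA2. ERVMER34-1 stood at 0.0512 and ERVW-1 at 0.00423 RPKM, and PNMA3, PNMA5 and ARC had no counts. The order in untreated KO cells was the same for the first 4, at 120, 13.5, 5.42 and 0.406 RPKM. On day 5 of DAC, PNMA5 stood at 8.62 RPKM in WT cells, between PNMA1 at 12.5 and ERV3-1 at 3.79. In KO cells it stood at 18.6 RPKM, between PEG10 at 39.1 and PNMA1 at 10.1.

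PEG10 fell under DAC in both genotypes and recovered in part by day 26. The 2 untreated WT libraries stood at 933 and 895 CPM. WT libraries under DAC stood at 388 and 388 CPM on day 5, 208 and 200 on day 16, and 492 and 511 on day 26. The 6 DAC libraries thus lay below both controls on each day, with the lowest pair on day 16. The log2 difference from the control was -1.24 on day 5 (SE 0.05, adjusted p = 6.27e-20), -2.16 on day 16 (adjusted p = 6.15e-27) and -0.87 on day 26 (adjusted p = 4.41e-16). In bulk RNA, less PEG10 RNA per cell and fewer cells with PEG10 RNA cannot be told apart.

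In KO cells the untreated libraries stood at 843 and 764 CPM. Under DAC they stood at 270 and 254 CPM on day 5, 250 and 244 on day 16, and 599 and 633 on day 26. The pairs of days 5 and 16 lay close together, and the day 26 pair had come back most of the way towards the control without overlapping it. The log2 differences were -1.62 (adjusted p = 3.22e-23), -1.70 (adjusted p = 3.23e-24) and -0.38 (adjusted p = 6.54e-08). Tested as an interaction, the KO response minus the WT response was -0.38 on day 5 (SE 0.07, adjusted p = 0.000388), 0.46 on day 16 (adjusted p = 1.54e-05) and 0.48 on day 26 (adjusted p = 4.05e-06). From day 5 to day 26 of DAC, PEG10 rose by 0.37 in WT and 1.24 in KO cells on the log2 scale.

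Under BMN alone PEG10 rose on day 26 in both genotypes. WT libraries under BMN stood at 974 and 977 CPM on day 5, 945 and 942 on day 16, and 1534 and 1538 on day 26. The pairs of days 5 and 16 stood slightly above both controls and did not pass (adjusted p = 0.778 and 0.65), and the day 26 pair was higher by 0.75 on the log2 scale (adjusted p = 4.07e-13). KO libraries under BMN stood at 970 and 987 CPM on day 5, 703 and 718 on day 16, and 1719 and 1709 on day 26, the highest group of the 20. The log2 differences from the KO control were 0.28 (adjusted p = 0.000155), -0.18 (adjusted p = 0.00692) and 1.09 (adjusted p = 1.49e-17). On the same day 26, 8 of 10 renal line markers were lower in each genotype (1 was higher in WT and 0 in KO cells), with a median log2 difference of -0.42 in WT and -0.51 in KO cells, beside 23% and 33.1% of all genes called. Their summed level was 5287 to 6272 CPM in the WT control and 4612 to 4705 CPM on day 26 of BMN, and 5997 to 6366 against 4708 to 4813 CPM in KO cells. In KO cells 8 of 10 were also lower on day 16 of BMN, when PEG10 was not higher. Their part in the PEG10 result was not tested. The fall on day 16 was lost (adjusted p up to 0.179) when 1 of 2 libraries, KO control replicate 1 or BMN replicate 1, was left out. Matched by day, PEG10 was lower under DAC than under BMN, with log2 differences of -1.33, -2.21 and -1.61 in WT and -1.90, -1.53 and -1.48 in KO cells on days 5, 16 and 26.

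Under the combination PEG10 was below the control on days 5 and 16 in both genotypes, with log2 differences of -0.90 and -2.87 in WT and -0.996 and -1.70 in KO cells. WT libraries stood at 493 and 488 CPM on day 5, 124 and 127 on day 16, and 585 and 589 on day 26, and the day 16 pair was the lowest group of the 20, 13.7-fold below the highest. Against DAC on the same day, WT levels were higher by 0.34 on day 5 (adjusted p = 4e-06), lower on day 16 with a log2 difference of -0.71 (adjusted p = 6.6e-13), and higher by 0.23 on day 26 (adjusted p = 0.00107). KO libraries stood at 399 and 407 CPM on day 5, 245 and 249 on day 16, and 1082 and 1094 on day 26. The last pair lay above both untreated KO libraries, by 0.44 on the log2 scale (adjusted p = 1.24e-08), and above DAC alone by 0.82 (adjusted p = 1.65e-14). The KO and WT responses to the combination differed by 1.17 on day 16 (adjusted p = 1.48e-14) and by 1.08 on day 26 (adjusted p = 1e-13), while the day 5 difference of -0.10 did not pass (adjusted p = 0.377).

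Untreated KO cells had slightly less PEG10 than untreated WT cells, with a log2 difference of -0.19 (adjusted p = 0.00322), which did not pass without KO control replicate 2 (adjusted p = 0.125). SGCE, an imprinted neighbour that overlaps the start of PEG10 on the other strand, fell by 0.45 in WT (adjusted p = 2.97e-06) and by 0.32 in KO cells (adjusted p = 0.000297) on day 5 of DAC. On days 16 and 26 SGCE did not pass the test in either genotype, when PEG10 was still lower. PPP1R9A, another imprinted gene of the region, was the gene whose mean log2 level over the 20 groups was most like that of PEG10 (Pearson r = 0.939). PTPN13, a protein phosphatase (r = 0.932), and DFFA, an inhibitor of a DNA fragmentation nuclease (r = 0.92), came next. The 20 points share their libraries' normalization, so these r values are descriptions.

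**Figure D1:**
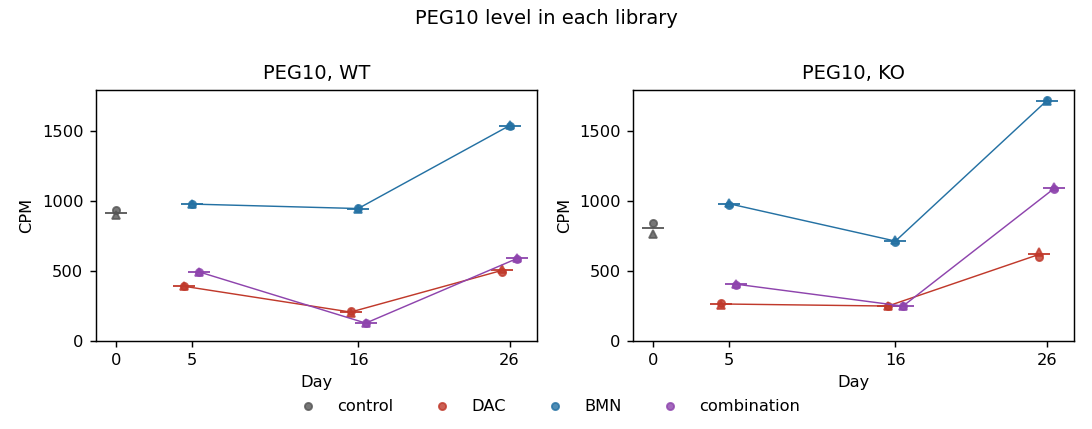
PEG10 in CPM (vertical axis, from 0) by day of treatment (horizontal axis, days) in WT (left) and KO cells (right). Circles are replicate 1, triangles are replicate 2, dashes are the group means joined by lines, and colours mark the control, DAC, BMN and the combination, drawn with a small sideways offset. DAC and combination libraries lie under the controls on days 5 and 16, and the KO combination libraries of day 26 (1082 and 1094 CPM) lie above them.

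PNMA5, a gag-derived gene of the paraneoplastic antigen family on chromosome X, went from no counts to one of the higher members. It had 0 counts in each of the 16 control and BMN libraries. WT libraries under DAC stood at 28.7 and 30.4 CPM on day 5, 14.8 and 12.7 on day 16, and 9.81 and 11.9 on day 26. KO libraries under DAC stood at 63.9 and 63.7 CPM on day 5, 29.2 and 30.7 on day 16, and 13.9 and 13.3 on day 26. The groups without DAC and with DAC did not overlap, and the level fell from day 5 onwards in both genotypes. Against the floor, the rise over the control was at least 193-fold, 89.7-fold and 70.7-fold in WT cells on the 3 days (adjusted p = 1.39e-18, 6.18e-17 and 5.8e-16). In KO cells it was at least 390-fold, 183-fold and 83.2-fold (adjusted p = 1.74e-20, 4.66e-19 and 1.51e-16). From day 5 to day 26 PNMA5 fell by 1.45 log2 units under DAC in WT (SE 0.13, adjusted p = 3.22e-09) and by 2.23 in KO cells (adjusted p = 2.03e-13).

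Adding BMN to DAC lowered PNMA5 in KO cells on each day. WT libraries under the combination stood at 22.9 and 21.1 CPM on day 5, 15.1 and 12.4 on day 16, and 7.33 and 7.42 on day 26. KO libraries under the combination stood at 34.8 and 30.1 CPM, 16.1 and 17.7, and 3.69 and 3.06 on the same days. In KO cells both combination libraries were below both DAC libraries on each day, with log2 differences of -0.98 (adjusted p = 4.61e-07), -0.83 (adjusted p = 2.71e-05) and -2.01 (adjusted p = 5.48e-10). In WT cells the differences were -0.43 on day 5 (adjusted p = 0.0164) and -0.56 on day 26 (adjusted p = 0.00682), while day 16 showed none beyond the spread (adjusted p = 0.994). Both WT calls were lost in 2 of the 4 fits that left out 1 library, with adjusted p up to 0.16 on day 5 and 0.166 on day 26. From day 5 to day 26 of the combination the fall was 1.57 log2 units in WT and 3.26 in KO cells.

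With both controls at 0, the response of the 2 genotypes could not be compared through their controls, and levels under treatment were compared directly, a test chosen after the data were seen. PNMA5 was higher in KO than WT cells under DAC by 1.11 log2 units on day 5 (SE 0.11, adjusted p = 1.8e-08), 1.12 on day 16 (adjusted p = 7.18e-08) and 0.33 on day 26 (adjusted p = 0.0479), in comparisons that called 30.4%, 24.7% and 42% of all genes tested. Under the combination it was higher in KO cells by 0.56 on day 5 (adjusted p = 0.000492), not separable on day 16 (0.30, adjusted p = 0.0832) and lower on day 26 with a difference of -1.13 (adjusted p = 3.62e-06), beside 36.6%, 28.6% and 36.9% of all genes. ZNF185, the nearest tested gene on 1 side at 15343 bases, rose by 0.90 in WT (adjusted p = 2.53e-07) and 1.21 in KO cells (adjusted p = 2.15e-11) on day 5 of DAC. In WT cells ZNF185 did not pass on day 16 (0.20, adjusted p = 0.218) or day 26 (0.06, adjusted p = 0.742), and in KO cells it was higher by 0.38 on day 16 (adjusted p = 0.0048) and did not pass on day 26 (-0.09, adjusted p = 0.504). The genes most like PNMA5 over the 20 groups were TRPC6, a calcium channel gene (r = 0.998), MAGEA4, a germline antigen gene on the X chromosome (r = 0.994), and NFE4, a globin gene regulator (r = 0.993). MAGEA4 belongs to a list of 20 X-linked germline genes, of which 17 were tested. In WT cells 17 of 17 rose on each of the 3 days of DAC, and in KO cells 16, 16 and 15 rose. Over all genes, 15.6%, 18.6% and 18.7% rose in WT and 19.5%, 19.9% and 26.3% in KO cells. A gene such as MAGEA4, at 0 CPM in the WT control, passes the filter only through groups in which it is high. The untested MAGEA2, XAGE1A and CTAG1B had at most 3, 6 and 0 counts in a library. The counts of this list are therefore descriptions only.

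PNMA2, another family member that is known as a brain antigen in paraneoplastic disease, was measurable before treatment and rose with DAC. The untreated WT libraries stood at 7.86 and 5.80 CPM. WT libraries under DAC stood at 13.0 and 12.1 CPM on day 5, 19.6 and 19.7 on day 16, and 23.5 and 25.9 on day 26. The rise built up over time in WT cells, and no DAC library overlapped the control. The log2 differences were 0.87 (SE 0.14, adjusted p = 7.73e-06), 1.52 (adjusted p = 3.17e-11) and 1.85 (adjusted p = 2.97e-13).

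Untreated KO cells had 2.54 and 1.98 CPM of PNMA2, below both untreated WT libraries, a log2 difference of -1.59 (SE 0.18, adjusted p = 1.12e-08). Under DAC the KO libraries stood at 10.2 and 9.33 CPM on day 5, 17.0 and 15.6 on day 16, and 11.1 and 11.4 on day 26. The KO peak was on day 16, and the day 26 pair was back near the day 5 pair (day 26 against day 5, 0.20, not past the test). The log2 differences from the KO control were 2.10 (adjusted p = 6.76e-12), 2.84 (adjusted p = 5.4e-16) and 2.31 (adjusted p = 4.39e-13). The KO response exceeded the WT response by 1.23 on day 5 (adjusted p = 0.000592) and 1.32 on day 16 (adjusted p = 9.24e-05), and the difference of 0.45 on day 26 did not pass (adjusted p = 0.158). The larger response started from the lower control, and under DAC each KO pair lay below the WT pair of the same day.

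Under BMN alone PNMA2 did not pass on any day in either genotype (adjusted p = 0.275 to 1), with 5.63 to 8.12 CPM in WT and 2.23 to 2.98 CPM in KO libraries. With the combination, WT libraries stood at 16.6 and 16.7 CPM on day 5, 18.2 and 20.5 on day 16, and 37.5 and 42.9 on day 26, the highest group of the 20. On day 26 both exceeded both DAC libraries, by 0.70 on the log2 scale (adjusted p = 3.28e-05). The day 5 difference from DAC, 0.41 (adjusted p = 0.0294), was lost in each of the 4 fits that left out 1 library. KO libraries under the combination stood at 8.51 and 11.8 CPM, 14.7 and 14.3, and 9 and 9.58 on the 3 days, and none of these differed from DAC past the test.

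DPYSL2, which overlaps PNMA2 on the other strand and encodes a protein of axon guidance, also rose under DAC. Its log2 differences in WT cells were 0.28 (adjusted p = 0.00144), 0.61 (adjusted p = 4.57e-09) and 0.71 (adjusted p = 1.79e-10), and in KO cells 0.88, 1.22 and 0.67. BNIP3L, which also overlaps PNMA2 on the other strand, did not pass in WT cells (adjusted p = 0.99, 0.244 and 0.814). In KO cells BNIP3L rose by 0.40 on day 5 (adjusted p = 0.032) and 0.51 on day 16 (adjusted p = 0.00529). It did not pass there on day 26 (0.13, adjusted p = 0.507). Per the file header, counting used strand. PRSS23, a serine protease (r = 0.98), IGFBP4, a binding protein of insulin-like growth factors (r = 0.976), and OASL, an interferon-induced gene (r = 0.976), were most like PNMA2 over the 20 groups. Since PNMA2 and ARC are known from neurons, 7 neuron markers were followed. Of these 6 were tested, and 3 rose and 0 fell in WT cells on day 5 of DAC, while 3 rose and 2 fell in KO cells. Of all genes tested, 27.8% in WT and 35.4% in KO cells were called on that day. The summed level of the 7 was 9.88 to 12.8 CPM in the WT control, 19.6 to 19.7 CPM in WT cells on day 5 of DAC and 11.4 to 12.6 CPM on day 26, when PNMA2 stood higher than on day 5. In KO cells it was 14.7 to 14.9 CPM in the control, 19.1 to 23.6 CPM on day 5 and 13.2 to 16.1 CPM on day 26 of DAC. Their part in the PNMA and ARC results was not tested.

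**Figure D2:**
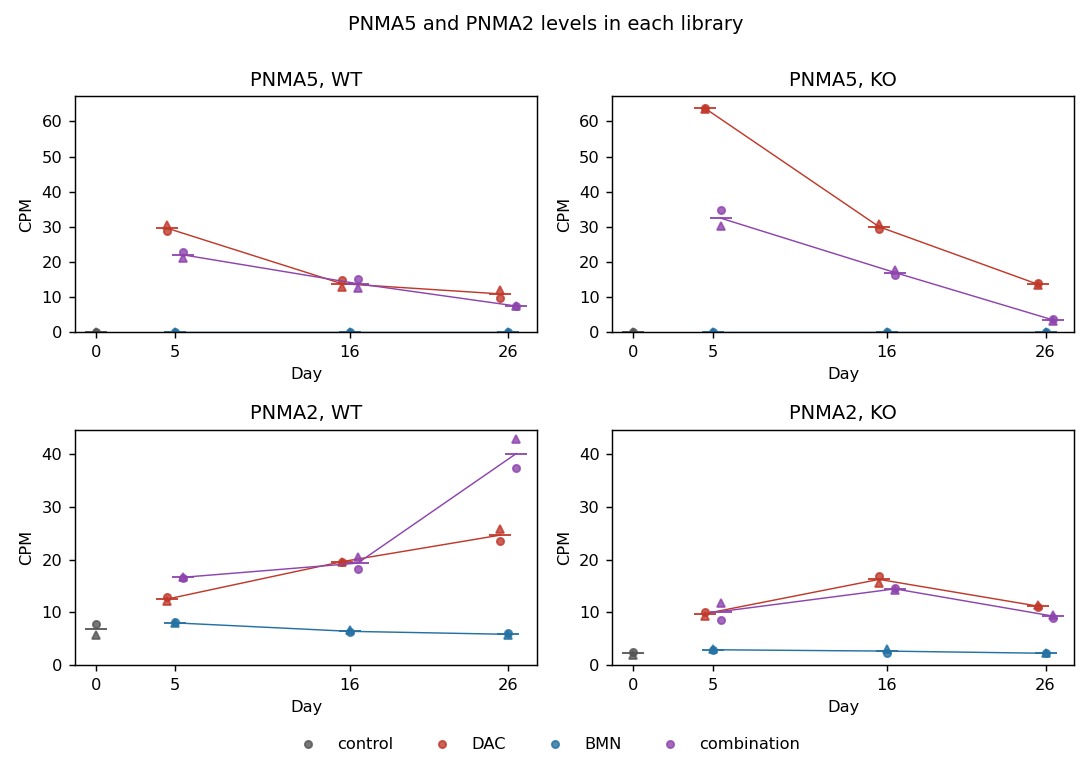
PNMA5 and PNMA2 in CPM (vertical axes, from 0) by day of treatment (days) in WT and KO cells, with circles for replicate 1, triangles for replicate 2, joined dashes for group means and colours for treatment. PNMA5 is at 0 in the control and BMN libraries and highest on day 5 of DAC in KO cells (63.9 and 63.7 CPM), while PNMA2 is highest in WT cells on day 26 of the combination (37.5 and 42.9 CPM).

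PNMA1, the founding member of the family, was expressed in the 40 libraries at 23.3 to 50.6 CPM, a narrower range than that of PEG10 or PNMA2. The untreated WT libraries stood at 38.4 and 49.8 CPM and the untreated KO libraries at 36.3 and 34.1 CPM. On day 5 of DAC, WT libraries stood at 33.3 and 31.8 CPM and KO libraries at 26.6 and 26.2 CPM. These pairs lay below their controls, with log2 differences of -0.44 (SE 0.09, adjusted p = 0.000282) and -0.42 (adjusted p = 0.000606). The WT call did not pass without WT control replicate 2 (adjusted p = 0.0635), the control library that stood highest. On days 16 and 26 of DAC the differences lay between -0.11 and 0.07 and did not pass.

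Among the BMN groups of each genotype, that of day 26 was lowest in PNMA1, at 30.1 and 30.3 CPM in WT and 23.3 and 24.8 CPM in KO cells. The log2 differences from the control were -0.54 (adjusted p = 4.81e-05) and -0.55 (adjusted p = 2.4e-05). KO cells were also lower on days 5 and 16 of BMN (-0.29 and -0.31, adjusted p = 0.0402 and 0.0134), calls lost in 4 and 2 of 4 fits that left out 1 library. Under the combination, WT libraries went from 29.6 and 26.9 CPM on day 5 to 47.7 and 50.6 CPM on day 26, a rise of 0.80 log2 units (adjusted p = 1.42e-08). Their day 5 pair was below the control, with a log2 difference of -0.64 (adjusted p = 6.35e-07), and the day 26 pair did not differ past the test. KO libraries stood at 29.2 and 31.2 CPM on day 5 and 33.2 and 32.5 CPM on day 26 of the combination, a narrower range. The lower PNMA1 level of untreated KO cells (-0.32, adjusted p = 0.00611) was lost without WT control replicate 2 (adjusted p up to 0.371) or without KO control replicate 2. MIDEAS, 737 bases away on the same strand, fell on each day of DAC by 0.20 to 0.25 in WT and 0.45 to 0.59 in KO cells. SIL1, a co-chaperone of the endoplasmic reticulum (r = 0.884), PLPP6 (r = 0.85) and PBX2, a homeobox factor (r = 0.834), were most like PNMA1.

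PNMA3 had 7 counts over the 40 libraries, at most 1 in a library, and 33 libraries had none. The 7 counts came from libraries treated with DAC or the combination, in 5 groups. Both libraries of KO cells on day 26 of DAC and on day 26 of the combination had 1 count each. These counts lie under the floor, so no difference was given. PNMA5, the gene next to it, reached 1194 counts in a library.

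ARC was absent from the counts of the 4 untreated libraries and appeared at low counts under DAC. WT libraries under DAC had 5 and 6 counts on day 5, 5 and 12 on day 16, and 6 and 8 on day 26. KO libraries under DAC had 21 and 12 counts, 18 and 21, and 6 and 5 on the same days. The KO counts of days 5 and 16 were the highest, and no DAC library overlapped the controls. The rise was at least 1.75-fold, 2.61-fold and 2.08-fold in WT (adjusted p = 0.0312, 0.00838 and 0.0172) and at least 5.48-fold, 6.29-fold and 1.75-fold in KO cells (adjusted p = 0.00063, 0.000328 and 0.0192). The WT calls and the KO call of day 26 were each lost in at least 2 of 4 fits that left out 1 library (adjusted p up to 0.115). The KO calls of days 5 and 16 held in those fits.

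BMN alone left ARC at 0 counts in the 6 WT libraries and at 0 or 1 in the 6 KO libraries. Under the combination WT libraries had 7 and 13 counts on day 5, 19 and 9 on day 16, and 7 and 7 on day 26, a rise of at least 3.41-fold, 4.71-fold and 2.08-fold (adjusted p = 0.00309, 0.000847 and 0.0132). The WT call of day 26 was lost without either WT control library (adjusted p up to 0.0701). KO libraries had 10 and 5 counts on day 5, 0 and 5 on day 16, and 0 and 9 on day 26, so on days 16 and 26 1 of the 2 libraries was at 0 like the controls. The KO difference passed on day 5 (at least 2.54-fold, adjusted p = 0.0065), did not pass on day 16 (adjusted p = 0.1), and passed on day 26 (adjusted p = 0.0442), the last being lost in 3 of 4 fits that left out 1 library. KO cells on day 16 had less ARC under the combination than under DAC (log2 difference -2.83, adjusted p = 0.0258), a call lost in 3 of the 4 fits that left out 1 library. KO against WT levels under treatment, compared after the data were seen, did not pass on any day (adjusted p = 0.0569 to 0.907). Over the 20 groups ARC was most like SUSD3 (r = 0.962), LINC00479, a long non-coding RNA (r = 0.95), and DOK2, an adaptor of tyrosine kinase signalling (r = 0.945). Among members, ARC and PNMA5 were most alike (r = 0.924), and PEG10 ran opposite to both (r = -0.782 and -0.783).

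Other immediate early genes, which cells induce rapidly on stimulation, were counted beside ARC. Of 19 listed 17 were tested, and under DAC 10 rose and 1 fell on day 5, 10 rose and 0 fell on day 16, and 6 rose and 3 fell on day 26 in WT cells, beside 27.8%, 33.5% and 31.9% of all genes called. In KO cells 8 rose and 1 fell, 3 rose and 3 fell, and 1 rose and 10 fell, beside 35.4%, 37.7% and 47.2%. The KO list thus had as many genes higher as lower on day 16 of DAC, when ARC had 18 and 21 counts. DUSP5, a phosphatase gene, went from 4.59 CPM in the WT control to 10.9 CPM on day 5 of DAC, and JUNB, a subunit of the AP-1 transcription factor, from 88.4 to 173.8 CPM. Under the combination 13, 13 and 8 rose and 0, 0 and 3 fell in WT cells, beside 39.5%, 43% and 41.1% of all genes, and 10, 5 and 2 rose and 1, 3 and 7 fell in KO cells, beside 49.2%, 42.6% and 34.7%. The part of this list in the ARC result was not tested.

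Of the envelope genes, ERV3-1 was the one with steady expression, and its response to DAC differed between the genotypes. The untreated libraries stood at 26.2 and 26.5 CPM in WT and at 28.8 and 25.7 CPM in KO cells. WT libraries under DAC stood at 21.4 and 16.7 CPM on day 5, 19.4 and 22.2 on day 16, and 17.1 and 16.3 on day 26. KO libraries under DAC stood at 25.8 and 26.7 CPM, 28.1 and 28.7, and 41.9 and 40.5. The WT libraries were below their controls on each day, whereas the KO libraries overlapped or bordered theirs until a rise on day 26. The WT log2 differences were -0.47 (SE 0.10, adjusted p = 0.000281), -0.34 (adjusted p = 0.00553) and -0.66 (adjusted p = 1.96e-06), and that of day 16 was lost without DAC replicate 1 (adjusted p = 0.127). In KO cells day 26 passed at 0.60 (adjusted p = 2.62e-06), and days 5 and 16 did not. The difference between the genotypes' responses was 1.25 on day 26 (adjusted p = 2.7e-08), and on days 5 and 16 it did not pass (0.42 and 0.40, adjusted p = 0.0843 and 0.0863).

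Under the combination, WT libraries of ERV3-1 stood at 19.6 and 18.3 CPM on day 5, 22.1 and 20.5 on day 16, and 16.9 and 16.8 on day 26. KO libraries stood at 38.9 and 40.8 CPM, 33.0 and 33.9, and 26.6 and 27.0 on the same days. In KO cells the order over time was the reverse of that under DAC alone, with the highest pair on day 5. Against DAC on the same day the KO log2 differences were 0.60 on day 5 (adjusted p = 9.04e-06), 0.24 on day 16 (adjusted p = 0.0833) and -0.62 on day 26 (adjusted p = 4.84e-06). The KO response to the combination exceeded the WT response by 1.02 (adjusted p = 9.05e-07), 0.60 (adjusted p = 0.00198) and 0.62 (adjusted p = 0.00141) on days 5, 16 and 26. BMN alone gave WT libraries of 33.6 and 35.2 CPM on day 26, above the control by 0.39 (adjusted p = 0.00273), and WT cells on days 5 and 16 and KO cells on the 3 days did not pass.

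ZNF117, a zinc finger gene, overlaps ERV3-1 on the same strand. ZNF117 rose under DAC in KO cells by 0.74 (adjusted p = 0.0341), 1.28 (adjusted p = 0.000242) and 1.82 (adjusted p = 8.81e-07), and in WT cells it did not pass on any day. How reads of the shared stretch were assigned to ZNF117 or ERV3-1, or left uncounted, was not tested. TTC21B, a gene of ciliary transport (r = 0.913), ITFG2 (r = 0.91) and GNAS-AS1, an imprinted antisense RNA (r = 0.905), were most like ERV3-1 over the 20 groups.

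**Figure D3:**
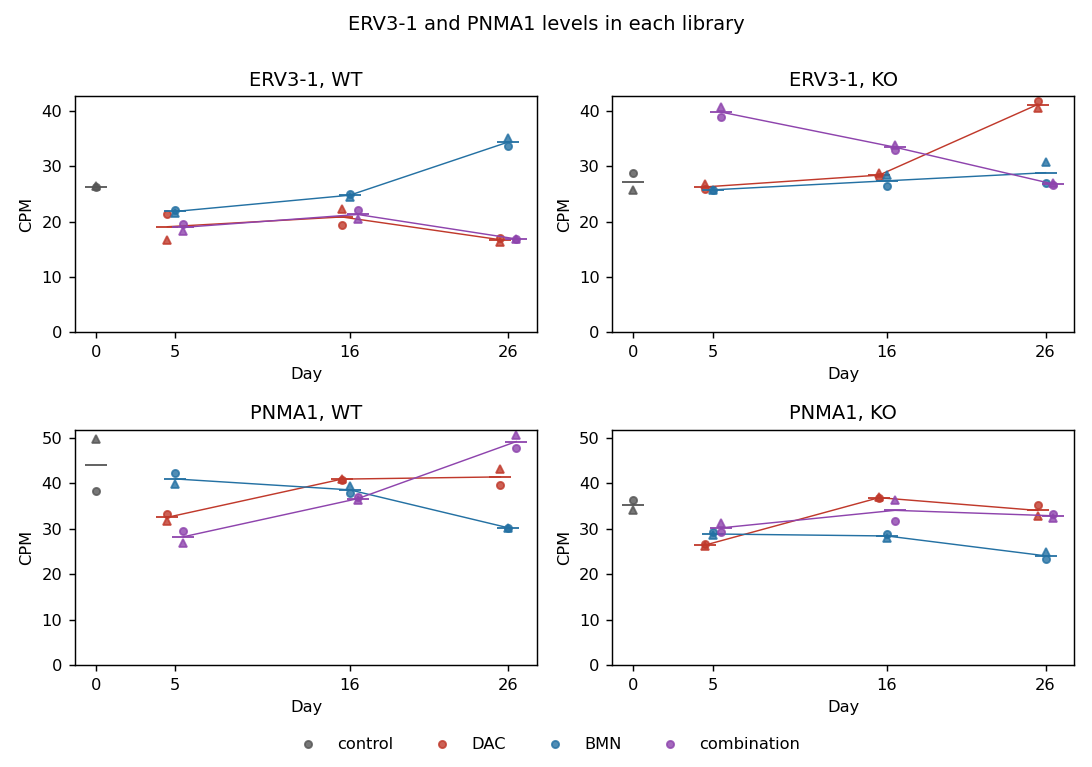
ERV3-1 and PNMA1 in CPM (vertical axes, from 0) by day of treatment (days) in WT and KO cells, with circles for replicate 1, triangles for replicate 2, joined dashes for group means and colours for treatment. In KO cells ERV3-1 is highest on day 26 under DAC (41.9 and 40.5 CPM) and on day 5 under the combination (38.9 and 40.8 CPM), while PNMA1 stays between 23.3 and 50.6 CPM in the 40 libraries.

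ERVMER34-1, which encodes an envelope-derived membrane protein, had 218 counts in all and 0 in 10 libraries. The untreated WT libraries had 2 and 6 counts and the untreated KO libraries 0 and 0. On day 26 WT libraries had 10 and 8 counts under DAC, 11 and 18 under BMN, and 24 and 23 under the combination. The combination pair was the highest group of the 20, above the WT control by 2.35 log2 units (adjusted p = 0.00428), a call lost without WT control replicate 1 (adjusted p = 0.0729). KO libraries under BMN had 1 count in 1 library and 0 in the other 5, and those under DAC had 0 and 5 on day 5, 2 and 4 on day 16, and 2 and 8 on day 26. Untreated KO cells were at least 1.26-fold lower than WT cells (adjusted p = 0.0231), lost in 3 of 4 fits that left out 1 library. KO cells on day 26 of DAC (at least 1.61-fold, adjusted p = 0.0065) and day 5 of the combination (4 and 5 counts, at least 1.53-fold, adjusted p = 0.0075) were above their control. Day 16 of DAC also passed (adjusted p = 0.0349), but the bound was not above 1. That call was lost in 3 of 4 fits that left out 1 library. The DAC call of day 26 was lost without DAC replicate 2 (adjusted p = 0.107), and on day 26 of the combination KO cells were at 0 and 0 counts. DANCR, a non-coding RNA that overlaps ERVMER34-1 on the other strand, fell under DAC by 0.48, 0.82 and 0.78 in WT cells. WNT5B, a secreted signalling protein, was most like ERVMER34-1 over the 20 groups (r = 0.902).

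ERVW-1, the syncytin-1 gene, had 51 counts in all, at most 8 in a library and 0 in 18 libraries. The highest group was KO cells on day 5 of the combination, with 3 and 8 counts. The 6 KO libraries under BMN had no counts. At this depth no difference of ERVW-1 between groups was tested, since it did not pass the filter. Trophoblast markers, the cell type in which syncytin-1 acts, summed to 3.58 to 4.40 CPM in the WT control, 0.540 to 0.716 CPM in the KO control and 9.68 to 10.2 CPM in KO cells on day 5 of the combination. Of the 8 markers 4 were tested, and 2 rose in WT and 4 in KO cells on day 5 of DAC, with 0 falling. Over all genes tested, 15.6% rose in WT and 19.5% in KO cells on that day. On days 16 and 26 of DAC, 1 and 0 rose and 1 and 1 fell in WT cells, beside 33.5% and 31.9% of all genes called. In KO cells 2 rose and 0 fell on each of these days, beside 37.7% and 47.2%. The markers summed to 2.41 to 3.03 CPM in WT and 5.51 to 5.60 CPM in KO cells on day 16 of DAC. Among the tested markers TFAP2C reached 142 counts in a library, PSG1 66, PSG4 51 and HLA-G 31. The other 4 were near 0, with at most 1 count of CGA in a library, 2 of CSH1 and CYP19A1, and 7 of GCM1. Their part in the envelope gene and PEG10 results was not tested.

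**Figure D4:**
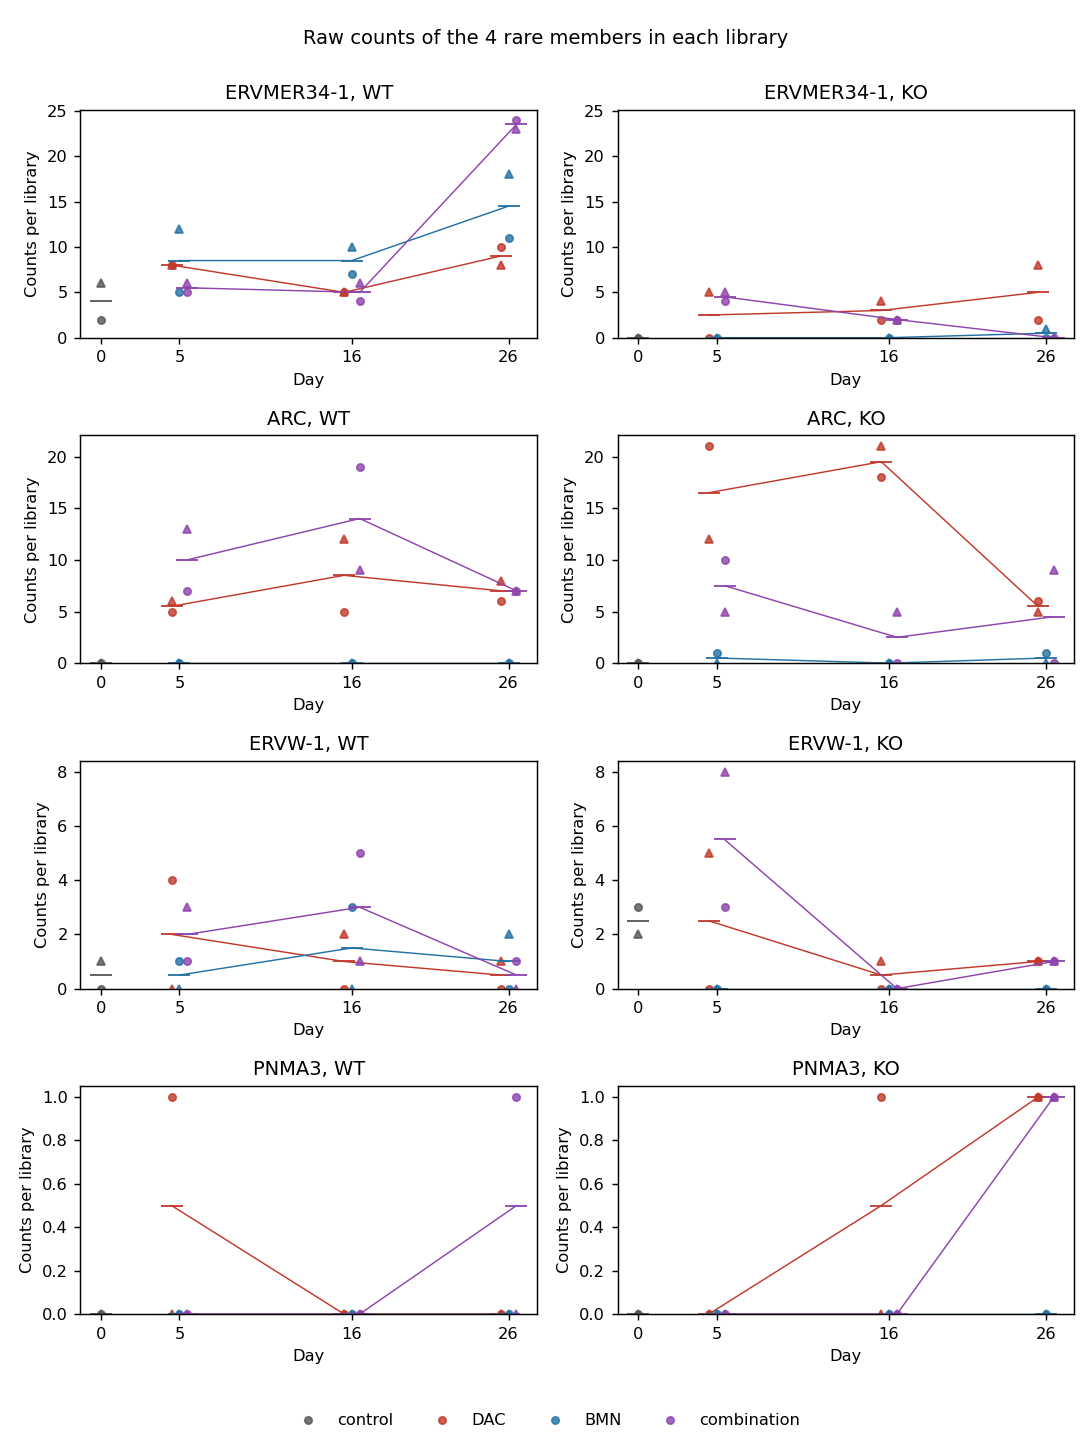
Deposited counts per library of ARC, ERVMER34-1, ERVW-1 and PNMA3 (vertical axes, from 0) by day of treatment (days) in WT and KO cells, with circles for replicate 1, triangles for replicate 2 and colours for treatment. ARC reaches 21 counts under DAC in KO cells, ERVMER34-1 24 counts under the combination in WT cells, ERVW-1 8 counts and PNMA3 1 count.

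The number of members past the test is given beside the share of all genes tested that were called. In WT cells 3 members rose and 3 fell on day 5 of DAC, where 27.8% of all genes tested were called, 15.6% higher and 12.2% lower. On day 16, 3 rose and 2 fell, beside 33.5% of all genes called (18.6% higher and 14.9% lower), and on day 26, 3 rose and 2 fell, beside 31.9% (18.7% and 13.2%). In KO cells 3 rose and 2 fell on day 5, beside 35.4% (19.5% higher and 16% lower). On day 16, 4 rose and 1 fell, beside 37.7% (19.9% and 17.8%), and on day 26, 5 rose and 1 fell, beside 47.2% (26.3% and 20.9%). The 4 of day 16 included ERVMER34-1, with 2 and 4 counts, a call lost in 3 of 4 fits that left out 1 library. PEG10 was lower and PNMA2, PNMA5 and ARC were higher in each of these 6 comparisons. The ARC calls of WT cells and that of KO cells on day 26 were each lost in at least 2 of 4 fits that left out 1 library. The median log2 difference of the 7 tested members on day 5 was 0.87 in WT and 2.10 in KO cells from fitted values, and 0.81 and 0 with genes at 0 in the control set at their bound, against 0.02 and 0.04 over all genes tested.

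With BMN alone, 0 of 7 tested members passed in WT cells on days 5 and 16, where 0.186% and 0.684% of all genes were called by edgeR. At an unadjusted threshold of 0.05 there was 1 member on each day, ERV3-1 on day 5 (log2 difference -0.27) and PNMA1 on day 16 (-0.19), and DESeq2 called 0 of the members it tested on both days. On day 26 4 passed, PEG10, ERV3-1 and ERVMER34-1 as higher and PNMA1 as lower, beside 23% of all genes. In KO cells 2 passed on each day: PEG10 as higher and PNMA1 as lower on days 5 and 26, and both as lower on day 16, beside 11.7%, 25.5% and 33.1% of all genes for days 5, 16 and 26. The ERVMER34-1 call of WT cells on day 26 was lost in each of the 4 fits that left out 1 library, as was the PNMA1 call of KO cells on day 5.

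Under the combination against the control, 6 of the 7 tested members passed on each day in WT cells, beside 39.5%, 43% and 41.1% of all genes. In KO cells 7, 4 and 4 passed on the 3 days, beside 49.2%, 42.6% and 34.7%, and PNMA2 and PNMA5 were higher each time. Under DAC against BMN on the same day, 5, 5 and 6 passed in WT cells, beside 23.1%, 31.7% and 34.2%, and 4, 6 and 6 in KO cells, beside 28.8%, 39.2% and 40.3%. PEG10 was lower and PNMA2 and PNMA5 were higher in these 6 comparisons. Under the combination against DAC on the same day, 3, 1 and 3 passed in WT cells (12.3%, 12.2% and 12.2% of all genes) and 3, 2 and 4 in KO cells (22.3%, 16.3% and 23.9%). Comparisons that use 1 control or 1 DAC group share those libraries.

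From day 5 to day 26 of DAC, 4 members passed in each genotype, beside 21.7% of all genes in WT and 35.9% in KO cells. Under the combination 5 passed in WT (35.9%) and 4 in KO cells (42.7%). Of the 4 members for which the genotypes' responses could be compared (PEG10, ERV3-1, PNMA1 and PNMA2), 2 differed in response to DAC on each day, beside 3.98%, 5.27% and 20% of all genes. In response to the combination 3, 3 and 2 differed, beside 16.8%, 11.5% and 13.1%. Between the untreated genotypes, 4 of 7 tested members were lower in KO cells (PEG10, ERVMER34-1, PNMA1 and PNMA2) and 0 were higher, beside 27.2% of all genes called, 13.4% higher and 13.9% lower.

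**Figure D5:**
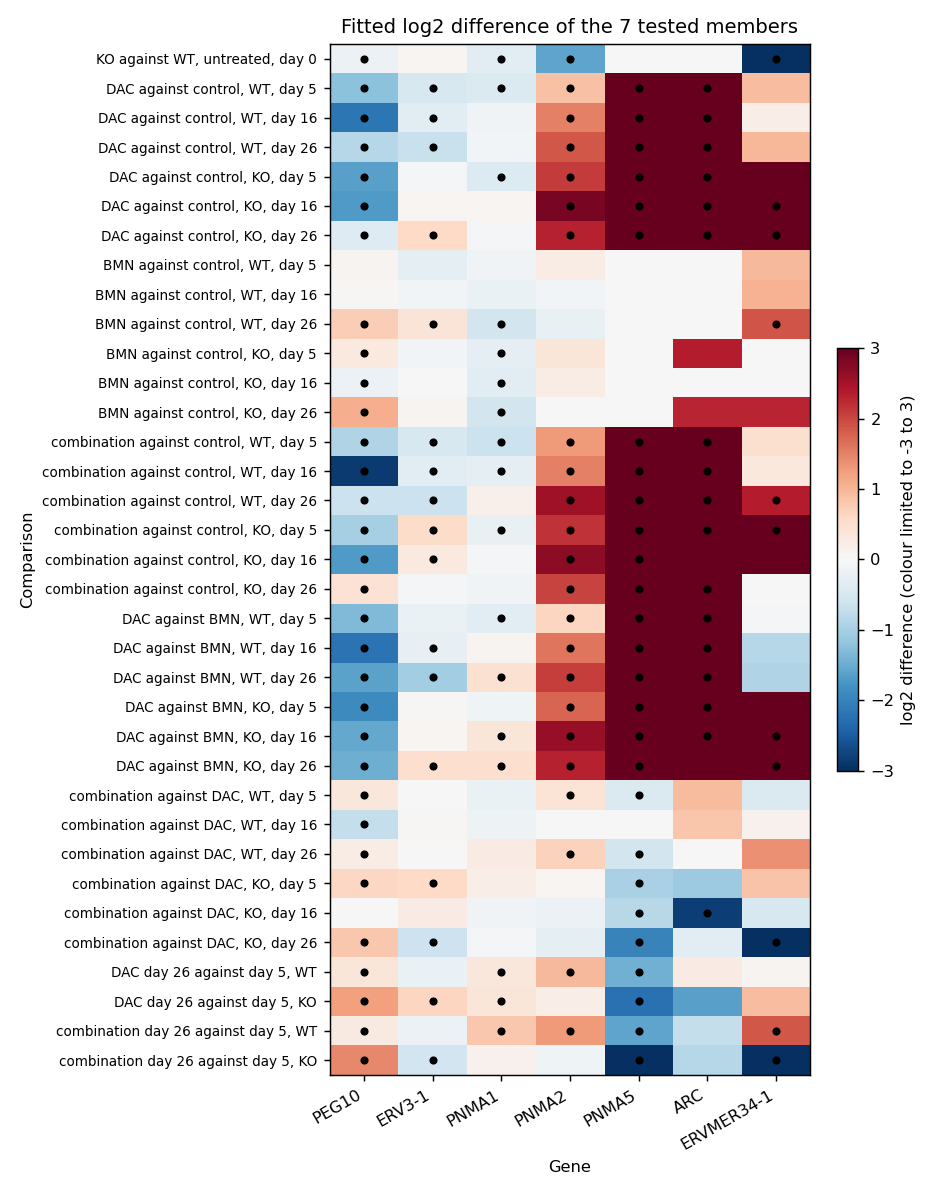
Fitted log2 differences (colour, limited to -3 to 3) of the 7 tested members (horizontal axis) in 35 comparisons (vertical axis). Dots mark an adjusted p under 0.05, and fitted values of genes at 0 in 1 group depend on the prior count. PEG10 is lower in the 6 DAC comparisons with the control and PNMA2, PNMA5 and ARC are higher. ARC had at most 21 counts in a library.

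Relatives of the members were counted from lists chosen by family. Their counts under DAC stand beside 27.8%, 33.5% and 31.9% of all genes called in WT and 35.4%, 37.7% and 47.2% in KO cells on days 5, 16 and 26. PNMA6E, RTL1 and ERVH48-1, with no counts in the controls, passed the filter through groups in which they were high. The counts of these lists are therefore descriptions only. Of 11 PNMA relatives 5 were tested, and 1 rose and 1 fell in WT cells on each day of DAC. PNMA6E, another X-linked family member, had no counts in the controls and reached 12.1 CPM in WT and 18.5 CPM in KO cells on day 5 of DAC, then 0.916 and 2.56 CPM on day 26. MOAP1, a family member that binds the cell death protein BAX, fell by 0.77, 0.43 and 0.46 in WT and by 1.11, 0.93 and 0.90 in KO cells. In KO cells 2 rose and 2 fell on days 5 and 16 of DAC and 2 rose and 1 fell on day 26. PNMA6A, 11986 bases from PNMA3 on the same strand, passed in KO cells with less than 1 CPM (log2 difference 2.18 on day 5, adjusted p = 0.0325). Reads of the PNMA6 copies can be hard to tell apart, so the PNMA6E and PNMA6A values are uncertain.

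The RTL genes derive, like PEG10, from the gag gene of a Ty3-type retrotransposon. Of 11 listed 10 were tested, and 2 rose and 3 fell in WT cells on day 5 of DAC, 1 rose and 4 fell on day 16, and 2 rose and 2 fell on day 26. In KO cells 1 rose and 4 fell, 0 rose and 4 fell, and 3 rose and 5 fell. Of the 10, this is 5, 5 and 4 called in WT, beside 27.8%, 33.5% and 31.9% of all genes, and 5, 4 and 8 in KO cells, beside 35.4%, 37.7% and 47.2%. RTL8C went from 80.3 CPM in the WT control to 56.0 CPM on day 5, a fall of 0.52 log2 units (adjusted p = 0.000689), and RTL6 from 77.2 to 65.3 CPM, a fall of 0.24 (adjusted p = 0.0121). RTL8A fell from 46.8 to 29.9 CPM (adjusted p = 0.000282). RTL8A, RTL8B and RTL8C are near-identical, so shared reads may have been dropped or misassigned, which was not tested. These falls were smaller in size than that of PEG10 on the same day, a difference that was not tested. RTL1, an imprinted placental gene, had no counts in the controls and 0.377 CPM in WT cells on day 5.

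Of 12 other envelope and long terminal repeat genes 4 were tested. In WT cells 2 rose and 0 fell on days 5 and 16 of DAC, and 2 rose and 1 fell on day 26, and in KO cells 3, 2 and 3 rose and 0 fell. ERVH48-1, which encodes the syncytin antagonist suppressyn, had no counts in the controls and reached 2.22 CPM in WT and 2.81 CPM in KO cells on day 5. Receptors of syncytins differed between the untreated genotypes: SLC1A4 was higher in KO cells by 1.34, SLC1A5 by 0.66 and MFSD2A by 1.24 log2 units, in a comparison that called 27.2% of all genes tested, 13.4% as higher. A mixed list of 8 further genes held ASPRV1, NYNRIN, GIN1, KRBA2, ZBED1, ZBED6, SCAND3 and TRIM5. Not all of them derive from capsid or protease genes, so their counts do not describe that class. ASPRV1 and ZBED1 had no counts. The other 6 were tested, and 0 rose and 3 fell in WT and 0 rose and 4 fell in KO cells on day 5. TRIM5, a restriction factor that binds retroviral capsids, fell by 0.45 in WT and 0.46 in KO cells on day 5 and rose by 0.36 and 0.65 on day 26.

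Among 24 genes that silence retroelements, 6 rose and 6 fell in WT and 5 rose and 8 fell in KO cells on day 5 of DAC, beside 27.8% and 35.4% of all genes called. SETDB1, a histone H3 lysine 9 methyltransferase, fell by 0.46 in WT and 0.42 in KO cells on day 5. SAMHD1, which limits reverse transcription, rose by 0.67 in WT and 0.83 in KO cells on day 5 and by 2.49 in WT cells on day 26. Of 25 imprinted genes 19 were tested, and on day 5 of DAC 5 rose and 5 fell in WT and 7 rose and 6 fell in KO cells, beside the same 27.8% and 35.4%. PPP1R9A was among those that fell, by 1.33 in WT and 1.96 in KO cells, and H19, a long non-coding RNA, was among those that rose, from 7.78 to 294.5 CPM in WT cells.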

How the data were processed

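RNA libraries were made with the KAPA RNA HyperPrep kit, per the labels' protocols. The deposited table holds whole-number counts of reads per gene, which the authors made with featureCounts 1.5.0-p1 on the Ensembl 104 annotation of GRCh38. Per the file headers, exons were summed per gene, the strand setting was 1, mapping quality was at least 20, and primary alignments not marked as duplicates were kept. The header lists 76 alignments, of which 40 belong to the libraries used here. FastQC, Trimmomatic and Partek are named in the submitters' processing notes, and the aligner's version and settings are not given in the sources used here.

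Counts of 40 libraries were analysed in R 4.3.3 with edgeR 4.0.16 (limma 3.58.1). Genes passed filterByExpr (minimum count 10, minimum total 15), libraries were scaled by TMM (factors 0.943 to 1.05), and a quasi-likelihood model with 1 mean per group was fitted to 22527 genes. Its biological coefficient of variation was 0.0718, with 20 residual degrees of freedom. Contrasts were tested with glmQLFTest, and p-values were adjusted by Benjamini-Hochberg over the genes tested in each contrast. CPM values use TMM-scaled totals. Tested on simulated counts for WT cells on day 5 of DAC (22215 genes), the test found 35 of 67 genes whose means were moved 1.5-fold, 51 of 67 at 2-fold and 59 of 66 at 4-fold, with 7 false calls. The simulated counts carried only the fitted trend of the spread, and few genes were moved. These numbers therefore need not hold for the real libraries. Alternatives were RLE size factors, no filter on low counts, a replicate block, DESeq2 1.42.0, a fit to the libraries of 1 contrast, and leaving out each library.

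The members and lists were chosen with earlier results of these data known. The text names the 9 members, from each list at most 4 genes with the smallest p on day 5 of DAC in WT cells, for each member the 3 genes with the highest Pearson r over 20 groups, and neighbours by the deposited coordinates. Genes named outside this rule (SETD2 and cell type markers) serve as checks. Symbols were matched for 42028 of 60664 identifiers. Each SE is the size of the log2 difference divided by the square root of its F statistic, so it includes the spread between libraries. The floor is a fixed 3 counts per library.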

Additional observations from a re-analysis of the deposited data

Results flagged for a closer look

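The results below are differences between SETD2 KO and WT cells in their response to the same treatment, each tested as an interaction with edgeR. Values are log2 units, KO response minus WT response.

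PEG10 differed in response to DAC by -0.38 on day 5 (SE 0.07, adjusted p = 0.000388), 0.46 on day 16 (adjusted p = 1.54e-05) and 0.48 on day 26 (adjusted p = 4.05e-06), so the sign changed between days 5 and 16. In response to the combination it differed by 1.17 on day 16 (adjusted p = 1.48e-14) and 1.08 on day 26 (adjusted p = 1e-13). PNMA2 differed in response to DAC by 1.23 on day 5 (SE 0.23, adjusted p = 0.000592) and 1.32 on day 16 (adjusted p = 9.24e-05). In response to the combination it differed by 0.88 on day 5 (adjusted p = 0.00615), a call lost in 3 of 8 fits that left out 1 library, and by 1.17 on day 16 (adjusted p = 0.000294). ERV3-1 differed in response to DAC by 1.25 on day 26 (adjusted p = 2.7e-08), and to the combination by 1.02 on day 5 (adjusted p = 9.05e-07), 0.60 on day 16 (adjusted p = 0.00198) and 0.62 on day 26 (adjusted p = 0.00141). PNMA1 differed in response to the combination by 0.42 on day 5 (adjusted p = 0.0232), a call lost in 4 of 8 fits that left out 1 library. Each of these differences rests on the 2 untreated libraries of each genotype.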

How the results depend on the processing

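Calls of members, summed over the comparisons of a kind, are given as the main number followed by the range when 1 library was left out: 4 (1 to 4) for untreated KO against WT, 32 (28 to 33) for DAC, 10 (7 to 10) for BMN and 33 (30 to 34) for the combination against the control, 32 (30 to 33) for DAC against BMN, 16 (14 to 16) for the combination against DAC, 17 (16 to 18) for day 26 against day 5, and 6 (6 to 7) and 8 (6 to 9) for the genotypes' difference in response to DAC and to the combination. The same numbers of genes called ranged from 4802 to 6030, 43181 to 48178, 15409 to 25619, 50132 to 55151, 42323 to 44047, 20333 to 22427, 28508 to 30781, 4805 to 8464 and 6513 to 12677. Of 158 member results past the threshold, 120 held in every fit without 1 library and 38 were lost in at least 1. With a fit to the libraries of the contrast alone, 1 of the 4 untreated calls was left. That fit also called 3181 genes instead of 6136 between the untreated genotypes, 1710 instead of 6580 for the difference in response to DAC, and 4741 instead of 9318 for that to the combination. No member result reversed in any alternative run.

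Replicate numbers are shared across groups, but same-numbered libraries did not deviate together in general. Over 190 pairs of groups the correlation of deviations ran from -0.174 to 0.237, with a median of -0.0004. In 10 pairs it was over 0.1. The fit with the replicate block gave 4, 33, 10, 33, 33, 16, 17, 6 and 8 member calls in the order above, keeping 158 of 158 and adding 2. RLE size factors kept 156 of 158, leaving the filter out 149 of 158, DESeq2 150 of the 154 it could test, and the fit to the contrast's libraries 119 of 138.

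With 2 libraries per group, at most 24 counts of ERVMER34-1 and 21 of ARC in a library, small differences of these genes were not detectable at this depth. PNMA3 and ERVW-1 were too low for a test. Without untreated cells on days 5, 16 and 26, treatment and time in culture cannot be told apart in comparisons with the control. No second WT or KO population was sampled, so the genotype and the population cannot be told apart.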
